A study of Mus musculus with 36 samples.

Results

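Natural killer (NK) cells from spleens of wild-type (WT) C57BL/6 mice were kept for 48 h on plate-bound antibodies to the activating receptors NKp46 and NKG2D, and their RNA was compared with that of cells kept in medium. The comparison holds 6 of the 36 libraries of the series, 3 with the antibodies and 3 in medium, chosen by the column names of the deposited table (NKp46_NKG2D_Ab and medium). A further 3 libraries of cells on antibodies to NKp46 and DNAM-1 (NKp46_DNAM1_Ab) entered the same fit. The column names join a number to the genotype (WT1, WT2, WT3), read here as the mouse, so each mouse gave 1 library of each kind. The sample titles disagree with the column names for 4 of the 6 libraries: all 3 libraries titled as medium are the WT1 columns. Values are attached to the columns, so the columns were followed. With groups taken from the titles, 0 genes were called by limma, with 550 at an unadjusted p under 0.05. Per the series' design text, NK cells were isolated from splenocytes under these conditions. The labels give no age, antibody clone or control antibody, so the medium cells differ from the stimulated ones by the antibodies and by any effect of a coated plate, which cannot be told apart.

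NKp46, encoded by Ncr1, is an activating receptor that marks NK cells and signals through the adaptors Fcer1g and Cd247. NKG2D, encoded by Klrk1, binds stress-induced ligands and signals through Hcst (DAP10) and Tyrobp (DAP12). Engagement of such receptors is known to trigger calcium and kinase signalling within minutes, a burst of immediate-early transcription factors, and the release of granules and cytokines, whereas prolonged engagement can leave NK cells less responsive. Expression is given in TPM, a measure of transcripts that divides the reads of a gene by its length and scales each library to a fixed total. Changes are differences of log2(TPM + 1), which understate the fold change of genes at low levels.

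The libraries carried the RNA of NK cells. All 12 NK cell markers were detected in the 6 libraries, and their summed level ran from 15977 to 17224 TPM in medium and from 16895 to 18346 TPM with antibodies. Other cell types were scarce but not absent. Summed B cell markers ran from 195 to 239 TPM in medium and from 129 to 178 TPM with antibodies, nearly all of it Ighm, while Ms4a1, Blk and Fcer2a of the 12 markers were at 0. Summed T cell markers ran from 240 to 445 TPM in medium and from 234 to 280 TPM with antibodies, mostly Trbc2, with Cd4 and Cd8b1 at 0. Without Trbc2 they ran from 34.25 to 76.4 TPM in medium and from 22.27 to 32.35 TPM with antibodies. Cd3g, Cd3e and Cd3d were detected in all of these libraries. Summed myeloid markers ran from 33.2 to 49.1 TPM in medium and from 24.2 to 29.2 TPM with antibodies, with Flt3 and Xcr1 at 0 among 17. The antibody libraries also listed more genes above 0 (16107 to 17680 against 13555 to 14674) and gave more of their total to ribosomal protein genes (15.4% to 16.7% against 13.8% to 14.6%). Both pairs of ranges lie apart, at the smallest p that an exact two-sided permutation test of 3 against 3 allows (0.1). At the same p, summed B cell markers, myeloid markers and T cell markers without Trbc2 were lower with antibodies in ranges that lie apart. The ranges of all T cell markers, and of B cell markers without Ighm, overlapped. The share of genes of the mitochondrial genome overlapped (4.54% to 5.86% in medium, 4.93% to 5.58% with antibodies). Sequencing depth is unknown, since TPM keep no record of it. Their part in the results that follow was not tested.

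After 48 h on the antibodies, more genes were called lower than higher against medium. A call here means a limma adjusted p below 0.05. It was reached by 59 (0.431%) of 13689 genes, 21 (0.153%) higher and 38 (0.278%) lower with antibodies, and 47 changed at least 2-fold. Without adjustment 15.1% of genes had a p under 0.05, 6.88% higher and 8.23% lower. The lower genes included the transcription factors Egr1, Egr2, Egr3, Fos and Nr4a1, the chemokines Ccl3 and Ccl4, and the cytokines Tnf and Ifng. The higher genes included the inhibitory receptor Lag3, the costimulatory receptor Tnfrsf9, the glycolytic enzyme Ldha and the sterol pathway enzyme Fdps. All 59 had groups that did not overlap, as did 17.3% of all genes tested. The median log2 change over all genes tested was -0.04, and 45.6% of them were above 0. With mouse as a block, 239 genes (1.75%) were called, 135 higher (0.986%) and 104 lower (0.76%), and all 59 were among them, so that the larger share was then higher. Leaving out antibody library 1, 2 or 3 gave 28, 32 and 32 calls, and leaving out medium library 1, 2 or 3 gave 59, 94 and 257. These are not always the same genes. Of the 59, the fits without an antibody library kept 27, 31 and 29, and those without a medium library 37, 47 and 58. In bulk RNA, fewer cells that express a gene and less RNA per cell cannot be told apart.

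**Figure D1:**
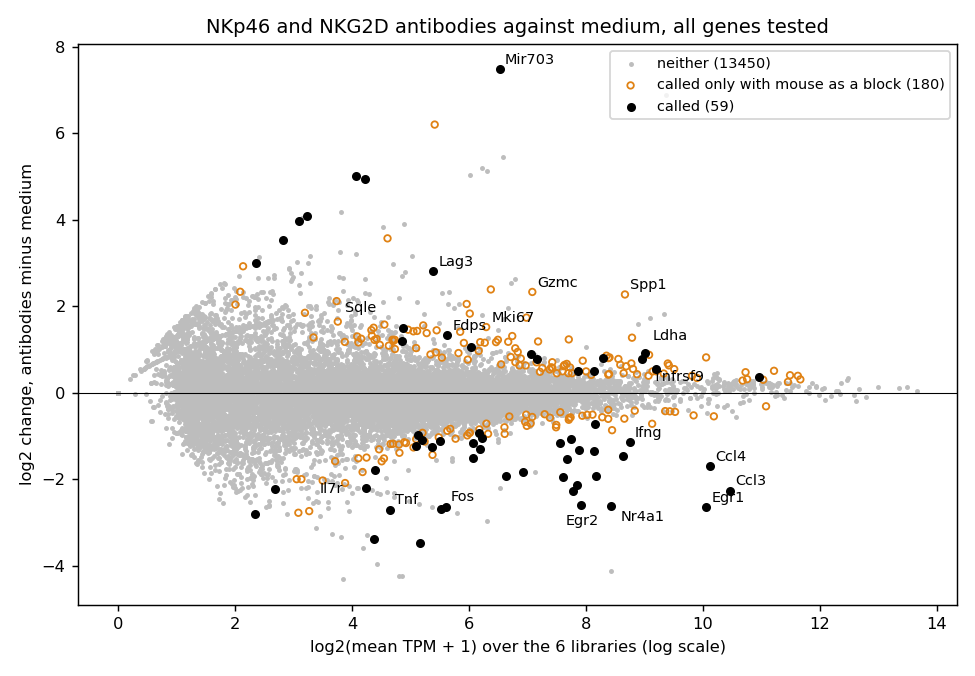
Log2 change (antibodies minus medium, vertical axis) against log2 of the mean TPM plus 1 (horizontal axis) for the 13689 genes tested. Filled black points are the 59 called genes and open points the 180 called only with mouse as a block; of the labelled genes Tnf, Egr1 and Fos lie lowest, and the height of a gene at 0 in medium, such as Mir703, depends on the added 1 TPM.

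RNA of the receptors that the antibodies bind was slightly lower with antibodies on average, and neither gene was called. Ncr1 stood at 926, 973 and 1076 TPM in the medium libraries of mice 1, 2 and 3 and at 861, 866 and 1002 TPM with antibodies. The groups overlap, although each mouse was lower with antibodies (log2 change -0.12, 95% interval -0.33 to 0.08, adjusted p = 0.541). Klrk1 stood at 1936, 1756 and 1947 TPM in medium and at 1625, 1750 and 1623 TPM with antibodies. These groups lie apart by a narrow margin, and the difference was not called (log2 change -0.17, 95% interval -0.33 to -0.02, adjusted p = 0.273). The adaptor genes Tyrobp (-0.15), Fcer1g (-0.13), Hcst (-0.09) and Cd247 (0.04) were not called either. Of 18 receptor and adaptor genes tested, 10 were lower in all 3 mice and 2 were higher, against 19.2% and 14.7% of all genes. Cd226, which encodes the activating receptor DNAM-1 and was not bound by this antibody pair, was the called member of the 18 receptor and adaptor genes tested, against 0.278% of all genes called lower. Its level was 102, 106 and 91.1 TPM in medium and 46.6, 51.8 and 44.0 TPM with antibodies. Every antibody library lies below every medium library (log2 change -1.06, SE 0.14, adjusted p = 0.0115). It was not called without antibody library 1 or 3, and over the 16 alternatives other than titles its highest adjusted p was 0.0768. Under the block, Klri2 and Klrb1c, which encode lectin-like receptors of the NK gene complex, were also called lower (log2 changes -0.61 and -0.55), and Slamf7, a self-binding receptor of the SLAM family, was called higher (0.82). Without the block their adjusted p were 0.0639, 0.322 and 0.167. Leaving out medium library 1, 2 or 3 beside the block gave 1, 2 and 1 lower calls among the 18, and 0, 1 and 0 higher. Reads of Klr genes can be shared within their family, so single members are uncertain.

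Of 38 genes of proximal signalling, the kinases and adaptors that act next to the receptors, 0 were called. Their median log2 change was -0.03, close to that of all genes. Pik3cd, a catalytic subunit of PI3 kinase, was called with mouse as a block (log2 change -0.57, adjusted p = 0.0288 with the block and 0.0907 without). Leaving out medium library 1, 2 or 3 beside the block gave 1, 0 and 0 lower calls among the 38. Lat, an adaptor of the signalling complex, had the second largest change in size at -0.88 and was not called (adjusted p = 0.184), behind Sh2d1b2 at 1.06 (adjusted p = 0.579).

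Immediate-early factors, transcription and RNA decay factors switched on within minutes of a stimulus without new protein synthesis, were the list with the most calls. Of 26 tested members, 10 were called lower and 0 higher, against 0.278% and 0.153% of all genes. The median log2 change of the list was -0.82, and 16 of the 26 lay lower with antibodies in groups that did not overlap, as did 9.84% of all genes. Summed over the list, the level was 7391, 5844 and 5051 TPM in the medium libraries and 2101, 2027 and 1838 TPM in the antibody libraries. The groups lie far apart, and the antibody libraries differ less among themselves than the medium libraries do (SD 136 against 1190 TPM, n = 3 each). The list was chosen with earlier results of these data known, so its count is no independent support for a direction.

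Egr1 (ENSMUSG00000038418), a zinc-finger factor induced by growth and antigen receptor signals, stood at 2312, 1692 and 1504 TPM in medium and at 329, 309 and 234 TPM with antibodies. That is 6.31-fold lower on the means (log2 change -2.64, SE 0.19, adjusted p = 0.000472). Its relatives moved with it. Egr2 (ENSMUSG00000037868) stood at 522, 398 and 318 TPM in medium and at 68.7, 69.2 and 61.0 TPM with antibodies (log2 change -2.59, SE 0.24, adjusted p = 0.000735). Egr3 (ENSMUSG00000033730) stood at 464, 381 and 278 TPM in medium and at 81.6, 86.8 and 78.9 TPM with antibodies (log2 change -2.14, SE 0.20, adjusted p = 0.000740). For all 3 genes medium library 1 was the highest and medium library 3 the lowest of their group. The antibody libraries lay close together for Egr2 and Egr3, while for Egr1 that of mouse 3 was lower than the others. Egr2 and Egr3 are known as drivers of unresponsiveness in T cells, besides their role in activation.

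Nr4a1 (ENSMUSG00000023034), an orphan nuclear receptor used as a read-out of recent antigen receptor signalling, stood at 709, 576 and 500 TPM in medium and at 103, 113 and 71.0 TPM with antibodies (log2 change -2.63, SE 0.22, adjusted p = 0.000596). Nr4a2 stood at 230, 183 and 155 TPM in medium and at 48.8, 57.5 and 49.4 TPM with antibodies (log2 change -1.83, SE 0.19, adjusted p = 0.00150). Nr4a3, the third family member, stood at 88.5, 80.5 and 67.1 TPM in medium and at 66.5, 87.7 and 58.5 TPM with antibodies. The Nr4a3 groups overlap, and it was not called (log2 change -0.16, 95% interval -0.64 to 0.32, adjusted p = 0.762).

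Fos (ENSMUSG00000021250), a subunit of the AP-1 dimer, stood at 103, 72.9 and 72.0 TPM in medium and at 14.8, 13.4 and 9.10 TPM with antibodies (log2 change -2.64, SE 0.24, adjusted p = 0.000712). Its usual partner Jun stood at 26.1, 20.7 and 26.1 TPM in medium and at 23.4, 20.5 and 29.7 TPM with antibodies, with overlapping groups and a log2 change of 0.00 (95% interval -0.51 to 0.51). Junb, another AP-1 subunit, fell from 468, 417 and 327 TPM to 166, 148 and 156 TPM (log2 change -1.35, SE 0.13, adjusted p = 0.000813). Fos and Junb were called and Jun was not; the difference between these genes was not tested.

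Zfp36 (ENSMUSG00000044786), whose product tristetraprolin binds AU-rich elements and destabilises cytokine RNAs, stood at 470, 341 and 280 TPM in medium and at 81.6, 79.3 and 59.8 TPM with antibodies (log2 change -2.27, SE 0.20, adjusted p = 0.000712). Ier2, an immediate-early response gene, fell from 607, 429 and 335 TPM to 126, 130 and 93.9 TPM (log2 change -1.93, SE 0.22, adjusted p = 0.00318). Btg2, an antiproliferative cofactor of RNA deadenylation, fell from 387, 323 and 302 TPM to 128, 141 and 128 TPM (log2 change -1.34, SE 0.11, adjusted p = 0.000596). In all 3 genes the highest antibody library lies far under the lowest medium library. The 10 called members were called under each of the 16 alternatives other than titles, except that Ier2 was not called with only the 2 compared groups in the fit (highest adjusted p 0.0627).

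**Figure D2:**
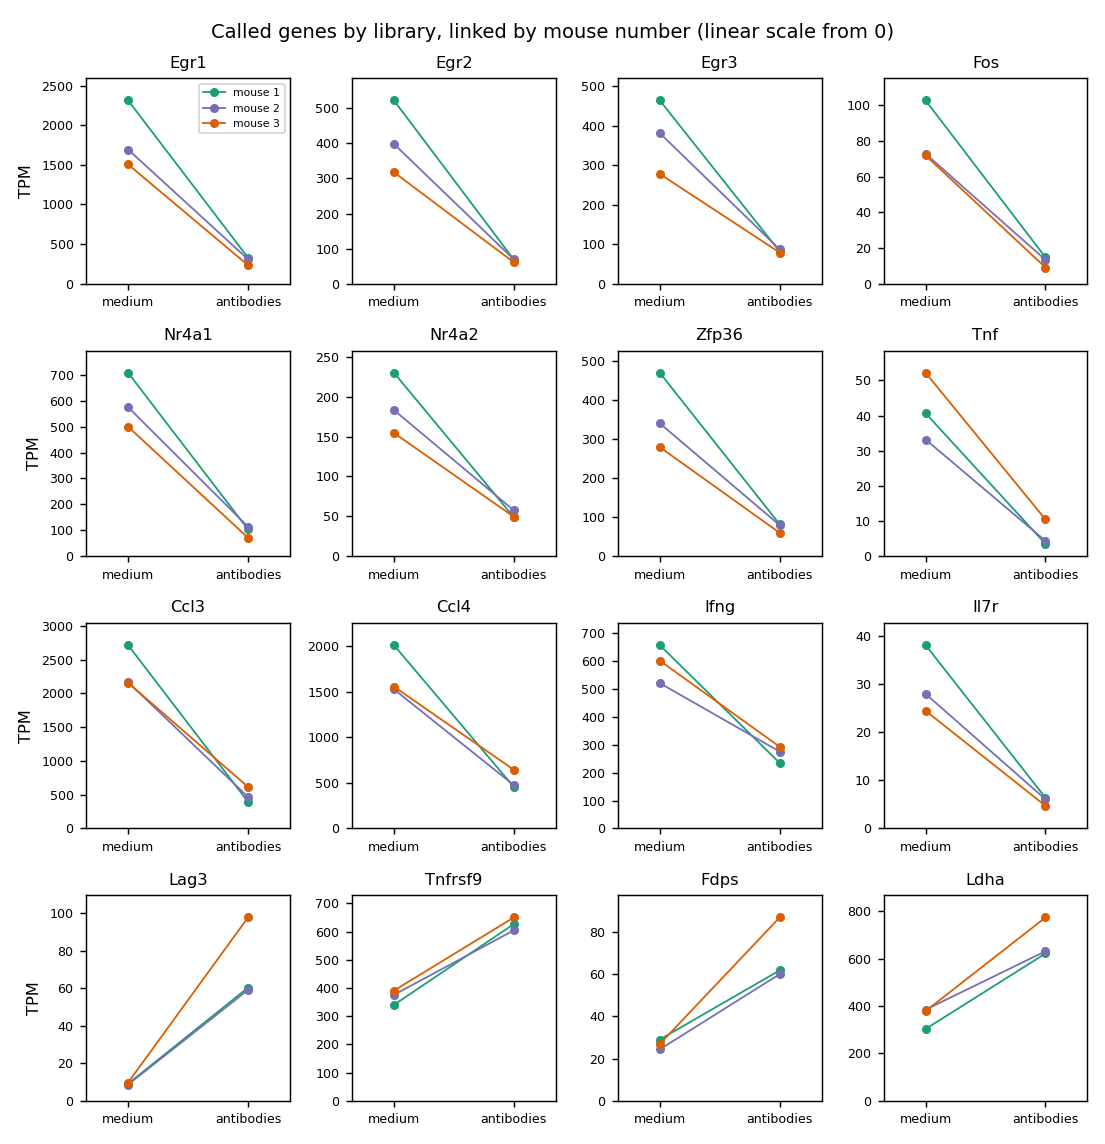
TPM (vertical axes, linear from 0) in each medium and antibody library for 16 called genes, with lines joining the 2 libraries of each mouse number. In the 12 genes of the upper rows each line goes down and in the 4 genes of the bottom row each goes up; for Egr1 the medium libraries sit at 1504 to 2312 TPM and the antibody libraries at 234 to 329 TPM.

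Promoter windows are shown for 2 of the called members, Egr2 and Zfp36, which share a motif. RefSeq windows from 250 bases before to 50 after the start site (build GRCm38.p6, while the values were made on GRCm39 per the submitters' processing notes) matched 19 of the 26 genes by symbol, 7 of the 10 called. The CArG box, the site of serum response factor, occurred on either strand in 2 of the 19, Egr2 and Zfp36, both called, and in 1.81% of all 27025 genes with a window. The letters TGACGTC, the core of the cyclic AMP response element, occurred in 4 of the 19 (Btg2, Egr2, Maff and Nr4a3) and in 3.6% of all genes. The bases before the start site are printed from 5′ to 3′ on the gene's strand, for Egr2 (chr10:67537619-67537868, plus strand) and Zfp36 (chr7:28379229-28379478, minus strand). Capitals mark the CArG box, 72 bases before the start site of Egr2 and 58 before that of Zfp36, and in Egr2 also TGACGTC on the opposite strand, 57 before.
Egr2: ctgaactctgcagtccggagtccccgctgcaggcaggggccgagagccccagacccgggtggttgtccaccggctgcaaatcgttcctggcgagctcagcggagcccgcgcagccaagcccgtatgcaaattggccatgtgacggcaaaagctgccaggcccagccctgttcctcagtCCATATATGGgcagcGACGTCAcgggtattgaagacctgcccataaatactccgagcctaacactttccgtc
Zfp36: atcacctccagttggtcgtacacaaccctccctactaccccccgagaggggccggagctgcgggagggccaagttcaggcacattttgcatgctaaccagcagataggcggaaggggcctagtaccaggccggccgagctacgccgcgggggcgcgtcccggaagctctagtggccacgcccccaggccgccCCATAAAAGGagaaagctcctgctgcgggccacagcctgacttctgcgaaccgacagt
These matches describe letters in a window and were searched after the values were seen, as were the other motifs, 6 in all, and no matches overlap in the windows printed. The NF-kappaB site matched 6 of the 19 genes (Fos, Fosb, Fosl2, Ier3, Maff and Nr4a1) and 5.14% of all genes.

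Cytokines and chemokines, the messengers through which NK cells act on other immune cells, held 4 called genes among 22 tested, all lower, against 0.278% of all genes. The median log2 change was -0.48. Ccl3 (ENSMUSG00000000982), an inflammatory chemokine, stood at 2713, 2165 and 2155 TPM in medium and at 394, 466 and 616 TPM with antibodies (log2 change -2.27, SE 0.16, adjusted p = 0.000472). Ccl4 (ENSMUSG00000018930), its neighbour in the chemokine cluster, stood at 2011, 1526 and 1556 TPM in medium and at 455, 476 and 644 TPM with antibodies (log2 change -1.70, SE 0.15, adjusted p = 0.000712). Both groups lie well apart, with medium library 1 the highest. Within the antibody group the library of mouse 3 was the highest for both chemokines, whereas it was the lowest for Egr1, Nr4a1, Fos and Zfp36.

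Tnf (ENSMUSG00000024401), the inflammatory cytokine, stood at 40.6, 33.2 and 52.2 TPM in medium and at 3.48, 4.34 and 10.4 TPM with antibodies. Every antibody library lies below every medium library (log2 change -2.70, SE 0.40, adjusted p = 0.0197). The call was lost without antibody library 1 or 2 or medium library 1, with a highest adjusted p of 0.128 over the alternatives other than titles. Ifng (ENSMUSG00000055170), which activates macrophages, stood at 656, 520 and 600 TPM in medium and at 234, 275 and 292 TPM with antibodies (log2 change -1.14, SE 0.14, adjusted p = 0.00531). Its groups also lie apart, and its highest adjusted p was 0.0509. Ifngas1, a long noncoding RNA next to Ifng, went the other way and was called only with mouse as a block. It stood at 0.00, 0.85 and 0.47 TPM in medium and at 5.95, 5.36 and 6.84 TPM with antibodies (adjusted p = 0.0453 with the block and 0.0613 without).

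Leaving out antibody library 1 gave 2 lower calls in the list, and leaving out medium library 3 gave 7 lower and 2 higher. The other members of the list did not share a direction. The block gave 7 lower and 2 higher calls, against 0.76% and 0.986% of all genes. Leaving out medium library 1, 2 or 3 beside the block gave 4, 5 and 3 lower calls, and leaving out antibody library 1, 2 or 3 gave 3, 3 and 3, with 1 higher each time. The added lower ones were Tnfsf14 (log2 change -1.44), Ltb (-0.95), both ligands of the lymphotoxin system, and the chemokine Ccl5 (-0.32), with adjusted p of 0.0543, 0.0824 and 0.560 without the block. The added higher ones were Spp1, which encodes the secreted glycoprotein osteopontin, and the chemokine Ccl9. Spp1 stood at 81.5, 124 and 201 TPM in medium and at 463, 446 and 1121 TPM with antibodies, higher in each mouse and with no overlap (log2 change 2.27, adjusted p = 0.000508 with the block and 0.0684 without). The chemokine Xcl1, which attracts dendritic cells, stood at 2134, 1381 and 1884 TPM in medium and at 1069, 939 and 1677 TPM with antibodies, with overlapping groups, and was not called (adjusted p = 0.274).

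Genes that limit activation or mark it went both ways. Of 34 genes of feedback and anergy, 2 were called lower and 1 higher, against 0.278% and 0.153% of all genes. Nfkbid, a nuclear regulator of NF-kappaB, fell from 184, 141 and 143 TPM to 43.1, 40.4 and 36.1 TPM (log2 change -1.93, SE 0.16, adjusted p = 0.000596). Dusp2, a phosphatase that switches off MAP kinases, fell from 669, 605 and 468 TPM to 223, 236 and 171 TPM (log2 change -1.46, SE 0.17, adjusted p = 0.00395). With only the 2 compared groups in the fit Dusp2 was not called (highest adjusted p 0.0627). Tnfaip3, which encodes A20, a brake on NF-kappaB signalling, rose from 178, 198 and 196 TPM to 269, 266 and 281 TPM (log2 change 0.51, SE 0.09, adjusted p = 0.0390). The Tnfaip3 groups lie apart, but the call was lost without any of the antibody libraries or medium library 1 (highest adjusted p 0.168). Spry2, an inhibitor of receptor kinase signalling, was called lower with mouse as a block (log2 change -0.51, adjusted p = 0.0349 with the block and 0.0534 without). The block gave 3 lower calls and 1 higher in the list. Leaving out medium library 1, 2 or 3 beside it gave 2, 2 and 2 lower, and 0 higher each time.

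Among 24 entries of inhibitory receptors tested, 1 was called higher, against 0.153% of all genes. Lag3 (ENSMUSG00000030124), an inhibitory receptor that binds MHC class II and is induced by lasting stimulation, stood at 9.11, 8.65 and 9.72 TPM in medium and at 60.2, 59.1 and 97.6 TPM with antibodies. Every antibody library exceeds every medium library more than any of them differ within a group, and the means differ 7.89-fold (log2 change 2.81, SE 0.24, adjusted p = 0.000596). The call held in all 16 alternatives other than titles. Ctla4, an inhibitor of CD28 costimulation, had the next largest change and was not called: it stood at 0.00, 3.42 and 0.96 TPM in medium and at 8.13, 9.60 and 18.4 TPM with antibodies (log2 change 2.59, adjusted p = 0.0933 without and 0.0521 with the block). Lilrb4a is listed under 2 identifiers, with log2 changes of 1.95 and -0.25, neither called. Klra9 (Ly49I) and Klrc1 (NKG2A), inhibitory receptors for MHC class I, were called lower with mouse as a block (log2 changes -0.43 and -0.42, adjusted p = 0.0246 and 0.0307). Without it their adjusted p were 0.0950 and 0.0639, and reads can be shared within both families. Leaving out medium library 1, 2 or 3 beside the block gave 0, 1 and 0 lower calls in the list.

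The list of costimulatory receptors also holds the activation marker Cd69, which was its lower call. This list gave 1 call in each direction among 14 tested, against 0.153% of all genes higher and 0.278% lower. Tnfrsf9 (ENSMUSG00000028965), which encodes 4-1BB, stood at 340, 376 and 391 TPM in medium and at 627, 605 and 650 TPM with antibodies. The groups lie apart with little spread inside either (log2 change 0.77, SE 0.08, adjusted p = 0.00144). Without the variance trend of limma Tnfrsf9 was not called (highest adjusted p 0.0622). Cd69, an early surface marker of activation that also holds lymphocytes in tissue, stood at 398, 223 and 293 TPM in medium and at 104, 86.9 and 116 TPM with antibodies (log2 change -1.53, SE 0.22, adjusted p = 0.0171). That call was lost without any of the antibody libraries or medium library 1 (highest adjusted p 0.124). Il7r, the receptor chain for interleukin-7, was the call among 20 cytokine receptors, against 0.278% of all genes called lower. It fell from 38.1, 28.0 and 24.5 TPM to 6.38, 6.06 and 4.71 TPM (log2 change -2.20, SE 0.29, adjusted p = 0.00974), and was not called without any of the antibody libraries (highest adjusted p 0.0737). Il2rb, the shared receptor chain for interleukin-2 and interleukin-15, was called higher with mouse as a block (log2 change 0.30, adjusted p = 0.0302 with the block and 0.0950 without). Leaving out medium library 1, 2 or 3 beside the block gave 0, 0 and 0 higher calls among the cytokine receptors.

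More genes of the killing machinery stood higher than lower with antibodies, without 1 shared direction. Within mice, 12 of 25 tested were higher in all 3 and 6 were lower, against 14.7% and 19.2% of all genes. Of 25 genes of the cytotoxic granule list, 1 was called lower without the block and 0 higher, against 0.278% and 0.153% of all genes, and the median log2 change was 0.31. Fasl, the death ligand, stood at 350, 328 and 381 TPM in medium and at 233, 226 and 187 TPM with antibodies (log2 change -0.72, SE 0.12, adjusted p = 0.0390). Its groups lie apart, yet the call was lost on leaving out any of the 6 libraries (highest adjusted p 0.159). It was also lost with median-of-ratios scaling of the libraries, and stayed called in 6 of the 16 alternatives other than titles. Under the block 5 members were called higher, against 0.986% of all genes: the pore former Prf1 (log2 change 0.54), the serine proteases Gzmb (0.50) and Gzmc (2.33), and the protease inhibitors Serpinb9b (1.17) and Serpinb6b (0.85). Their adjusted p with the block ran from 0.00387 to 0.0307. Leaving out medium library 1, 2 or 3 beside the block gave 2, 5 and 3 such calls, and leaving out antibody library 1, 2 or 3 gave 1, 0 and 0. Gzmb stood at 1603, 2015 and 2258 TPM in medium and at 2235, 2563 and 3628 TPM with antibodies, so the groups overlap while each mouse was higher with antibodies (adjusted p = 0.0160 with the block and 0.302 without). Gzmc stood at 15.0, 40.2 and 49.6 TPM in medium and at 84.2, 92.9 and 526 TPM with antibodies, with mouse 3 far above the others (adjusted p = 0.0246 with the block and 0.226 without). Gzmd and Gzme were listed at 0 in all 3 medium libraries, and with antibodies Gzmd stood at 4.97, 1.02 and 19.5 TPM and Gzme at 0.91, 1.94 and 15.3 TPM, with neither called. Gzmc, Gzmd and Gzme are close copies that can share reads, so their single levels are uncertain.

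Genes of sterol synthesis, the pathway that makes cholesterol, mostly stood higher with antibodies. Of 19 tested, 15 were higher within each of the 3 mice and 0 were lower in all 3, against 14.7% and 19.2% of all genes. In 13 of the 19 the groups lie apart upward, as in 7.5% of all genes, and the median log2 change was 0.81. Without the block 1 was called, against 0.153% of all genes called higher: Fdps (ENSMUSG00000059743), which makes farnesyl diphosphate. It stood at 29.1, 24.4 and 26.9 TPM in medium and at 61.8, 60.0 and 86.9 TPM with antibodies (log2 change 1.33, SE 0.19, adjusted p = 0.0159). It was not called without any of the antibody libraries (highest adjusted p 0.106). The block gave 5 calls, against 0.986% of all genes, Sqle and Hmgcs1 among them, and leaving out a medium library beside the block gave 2, 3 and 1 calls and leaving out an antibody library gave 0, 0 and 0.

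Hmgcs1, which makes the precursor of mevalonate, stood at 27.3, 40.1 and 42.9 TPM in medium and at 71.9, 77.4 and 96.0 TPM with antibodies, with no overlap (log2 change 1.15, adjusted p = 0.0114 with the block and 0.0704 without). Sqle, which epoxidises squalene, stood at 5.87, 14.3 and 13.3 TPM in medium and at 27.1, 30.6 and 43.5 TPM with antibodies, also with no overlap (log2 change 1.57, adjusted p = 0.0246 with the block and 0.0789 without). In both genes mouse 3 was the highest antibody library. Dhcr7, the last enzyme of cholesterol synthesis, was the member with a log2 change below 0, at -0.46, and was not called.

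RefSeq windows matched 13 of these 19 genes. The letters CCAAT, the binding core of NF-Y, occurred on either strand in 13 of the 13, and in 41.1% of all genes with a window. TCACNCCAC, a form of the sterol response element, occurred in 1 of the 13, Hmgcs1, and in 1.44% of all genes. For Hmgcs1 (chr13:119690101-119690350, plus strand, GRCm38.p6) the 250 bases before the start site are printed with 3 CCAAT letters, all on the opposite strand as ATTGG, and TCACCCCAC in capitals.
Hmgcs1: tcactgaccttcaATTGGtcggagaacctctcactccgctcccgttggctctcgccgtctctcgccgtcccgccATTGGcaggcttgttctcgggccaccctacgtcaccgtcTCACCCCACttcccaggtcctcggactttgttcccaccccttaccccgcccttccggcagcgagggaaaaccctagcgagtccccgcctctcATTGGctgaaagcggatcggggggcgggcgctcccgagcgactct

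Of 23 genes of glycolysis and nutrient uptake, 1 was called higher and 0 lower, against 0.153% and 0.278% of all genes. Ldha (ENSMUSG00000063229), which turns pyruvate into lactate, stood at 304, 385 and 379 TPM in medium and at 622, 632 and 775 TPM with antibodies. The groups lie apart (log2 change 0.93, SE 0.14, adjusted p = 0.0231), but the call was lost without any of the antibody libraries or medium library 1 (highest adjusted p 0.133). With mouse as a block Gapdh, Pgk1 and Pkm, enzymes of the same pathway, were also called higher, with log2 changes of 0.81, 0.74 and 0.64, which made 4 calls in the list against 0.986% of all genes. Gapdh stood at 562, 858 and 928 TPM in medium and at 1268, 1315 and 1459 TPM with antibodies, with no overlap (adjusted p = 0.0191 with the block and 0.0819 without). Leaving out medium library 1, 2 or 3 beside the block gave 3, 4 and 1 calls in the list, and leaving out antibody library 1, 2 or 3 gave 1, 1 and 0. The amino acid transporter genes had changes below 0: Slc3a2 (-0.53), Slc38a2 (-0.49), Slc7a5 (-0.47) and Slc1a5 (-0.05) were not called.

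Genes of the cell cycle and DNA replication were the list with the highest median, at 1.02 on the log2 scale, yet 0 of 35 were called without the block. Within mice the direction was regular: 26 of 35 were higher with antibodies in each of the 3 mice and 2 were lower, against 14.7% and 19.2% of all genes. The summed level of the list was 1618, 2290 and 3100 TPM in medium and 3006, 3364 and 4828 TPM with antibodies. The groups overlap, since mice 1, 2 and 3 differ in the same order in both, and each mouse was higher with antibodies. Blocking by mouse, 14 were called higher and 0 lower, against 0.986% and 0.76% of all genes. Leaving out a medium library beside the block gave 5, 4 and 3 calls, and leaving out an antibody library gave 0, 0 and 0. Without the block, leaving out medium library 3 gave 5.

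Mki67, which marks cycling cells, stood at 12.8, 38.3 and 81.6 TPM in medium and at 60.8, 94.2 and 177 TPM with antibodies. The groups overlap, and each mouse was higher with antibodies (log2 change 1.52, adjusted p = 0.0418 with the block and 0.274 without). Cdk1, the kinase of mitotic entry, stood at 19.4, 7.36 and 47.6 TPM in medium and at 62.6, 49.7 and 181 TPM with antibodies, with no overlap (log2 change 2.05, adjusted p = 0.0217 with the block and 0.204 without). Top2a, which untangles replicated DNA, stood at 18.1, 48.5 and 141 TPM in medium and at 115, 150 and 281 TPM with antibodies (log2 change 1.73, adjusted p = 0.0418 with the block and 0.239 without). Mouse 3 was the highest library of its group in all 3 genes, and its medium library exceeds the antibody library of mouse 1, but not of mouse 2, for Mki67 and Top2a. The cyclins Ccne1, Ccne2, Ccna2, Ccnb1 and Ccnb2, the replication factors Mcm2, Mcm7, Pcna and Rrm1, and Aurka and Stmn1 made up the rest of the 14, with log2 changes from 0.78 to 1.84. The cell cycle inhibitors Cdkn1a (-0.77) and Cdkn1b (-0.53) were not called. The early cyclins Ccnd2 (-0.01) and Ccnd3 (0.01) were level.

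RefSeq windows matched 29 of the 36 genes listed for the cell cycle. CCAAT occurred in 21 of them (72.4%, against 41.1% of all genes), and TTTGAA, the core of the cell cycle homology region, in 9 (31.0%, against 20.2% of all genes). Top2a (chr11:99024190-99024439, minus strand, GRCm38.p6) is shown for holding both, with 6 CCAAT and 2 TTTGAA on either strand in capitals, among the 250 bases before its start site.
Top2a: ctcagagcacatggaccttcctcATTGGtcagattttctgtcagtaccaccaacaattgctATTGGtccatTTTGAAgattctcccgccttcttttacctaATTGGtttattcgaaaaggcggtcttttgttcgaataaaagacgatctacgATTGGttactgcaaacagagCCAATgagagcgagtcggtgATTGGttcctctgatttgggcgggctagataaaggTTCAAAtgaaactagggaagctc

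**Figure D3:**
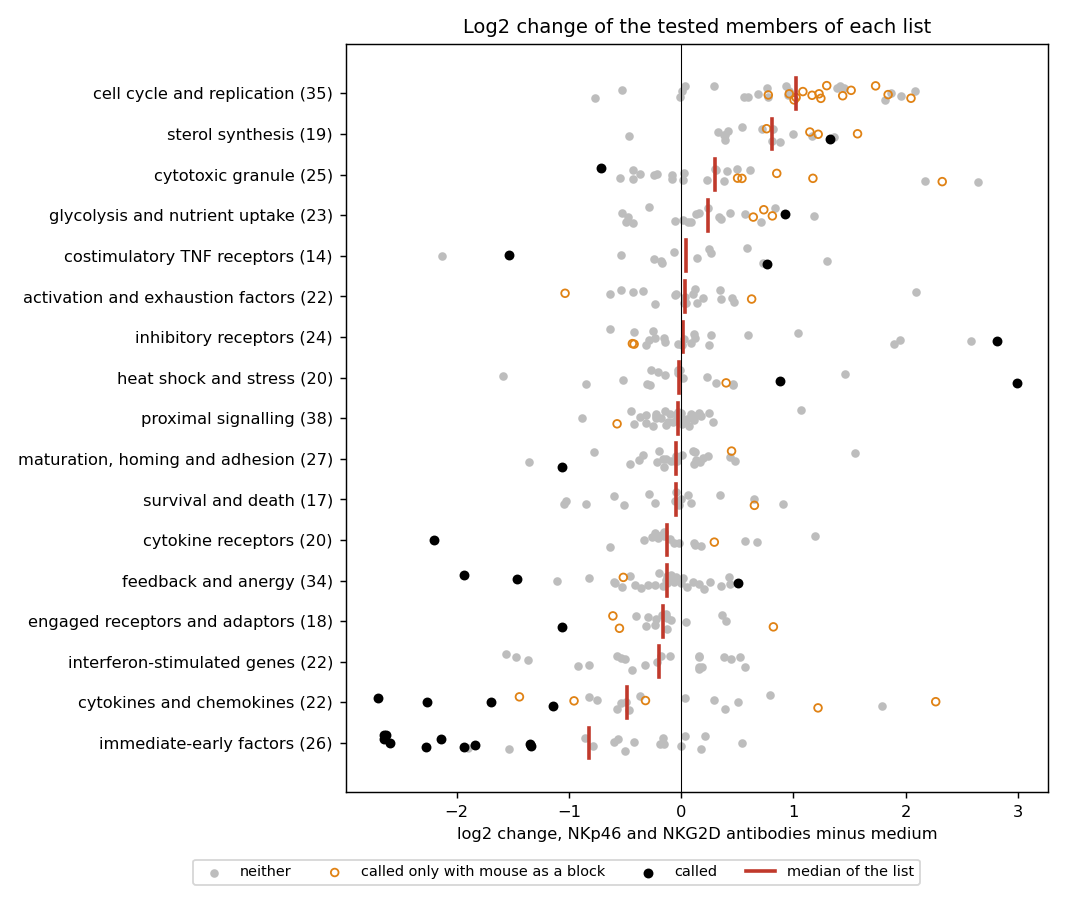
Log2 change (antibodies minus medium, horizontal axis) of each tested member of the 17 lists, with the number of members in brackets; vertical bars are list medians. Immediate-early factors have the lowest median (-0.82, 10 called) and cell cycle genes the highest (1.02, 14 called with the block and 0 without).

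**Figure D4:**
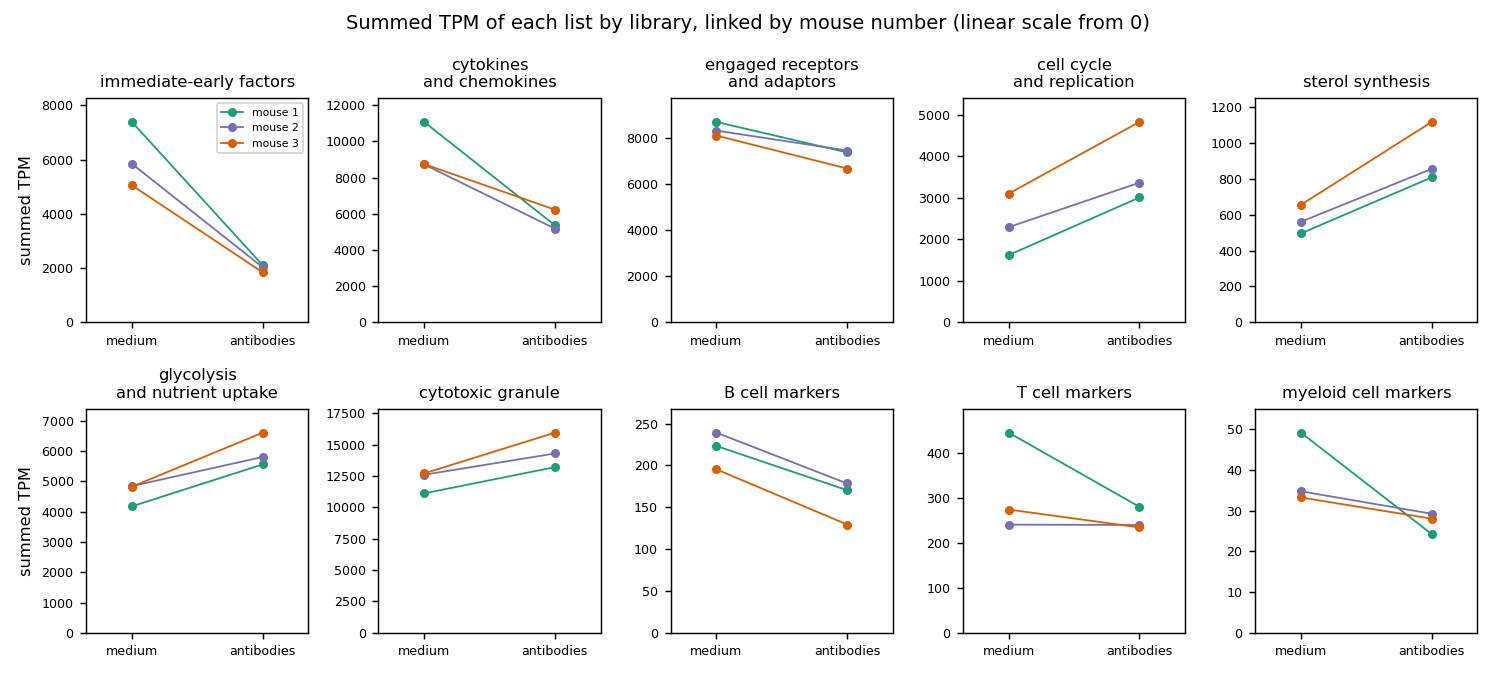
Summed TPM (vertical axes, linear from 0) of 7 gene lists and of the markers of 3 other cell types in each library, with lines joining the 2 libraries of each mouse number. The immediate-early sum goes down in each mouse from 5051 to 7391 TPM in medium to 1838 to 2101 TPM, and the sums of the cell cycle and sterol lists go up in each mouse.

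The remaining lists held few calls. Ly6c2, a surface marker of mature lymphocytes, was the call among 27 genes of maturation, homing and adhesion, against 0.278% of all genes called lower. It fell from 274, 294 and 296 TPM to 157, 122 and 135 TPM (log2 change -1.06, SE 0.11, adjusted p = 0.00152), in groups that lie apart, although reads can be shared with its near-copy Ly6c1. Of 20 genes of heat shock and stress 2 were called higher, against 0.153% of all genes. Hspe1, the mitochondrial chaperonin cofactor, rose from 80.3, 92.1 and 108 TPM to 148, 173 and 197 TPM (log2 change 0.88, SE 0.14, adjusted p = 0.0295). Mt1, a metallothionein that binds zinc, was listed at 0 in all 3 medium libraries and at 13.9, 2.60 and 8.35 TPM with antibodies (adjusted p = 0.0366). Of 22 interferon-stimulated genes 0 were called, and Oasl2 (-1.56), Mx1 (-1.47) and Ifit3 (-1.37) had the largest changes (adjusted p = 0.156, 0.0937 and 0.250). Of 22 activation and exhaustion factors 0 were called. Under the block Irf8 was called higher (0.63) and Klf2, which keeps lymphocytes quiescent, lower (-1.03), with adjusted p of 0.0773 and 0.195 without the block. In that list, leaving out medium library 1, 2 or 3 beside the block gave 0, 1 and 0 calls in each direction. Of 17 genes of survival and death 0 were called. Calls of Hspe1 and Mt1 were lost without antibody library 1 or 3 or medium library 1 or 2, and that of Hspe1 also without antibody library 2 (highest adjusted p 0.189 and 0.207). Mt1 was also lost with 5 TPM added before the logarithm, with a minimum mean of 5 TPM and with quantile scaling. Over the 16 alternatives other than titles, Hspe1 stayed called in 8 and Mt1 in 7.

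Several members with large changes in their list missed the threshold in both fits. Havcr2, the inhibitory receptor TIM-3, stood at 0.87, 1.38 and 3.21 TPM in medium and at 3.11, 10.1 and 20.4 TPM with antibodies, with overlap between groups (log2 change 1.90, adjusted p = 0.185, or 0.0563 with the block). Bak1, a mitochondrial death effector, stood at 29.8, 55.2 and 48.2 TPM in medium and at 81.8, 75.6 and 87.3 TPM with antibodies, with no overlap (log2 change 0.91, adjusted p = 0.126, or 0.0521 with the block). Bcl2l1, which opposes it, stood at 111, 68.9 and 50.1 TPM in medium and at 34.1, 38.5 and 33.0 TPM with antibodies, also with no overlap (log2 change -1.03, adjusted p = 0.207). Zbtb32, a repressor induced in proliferating NK cells, stood at 5.95, 0.59 and 5.89 TPM in medium and at 6.54, 19.6 and 37.2 TPM with antibodies, where mouse 1 barely differed (log2 change 2.09, adjusted p = 0.234). S1pr1, the receptor for exit from tissue, had a log2 change of -1.35, the chemokine receptor gene Cx3cr1 1.55, Tnfrsf25 -2.13, Gadd45a, a stress sensor, -1.59, Cish, an inhibitor of cytokine signalling, -1.10, and Plk1, a mitotic kinase, 2.09 (adjusted p from 0.166 to 0.271).

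A few RNAs were listed at 0 in each medium library. Mir703, a microRNA gene, was listed at 0 in all 3 medium libraries and at 247, 137 and 163 TPM with antibodies (adjusted p = 0.000712). The groups lie apart, and the call held in all 16 alternatives other than titles. Per the labels the libraries were made from mRNA, so this value counts reads over the gene's locus and not the mature microRNA. The locus is short (109 bases in RefSeq, on chromosome 5), and few reads give a high TPM at that length. The mature sequence in RefSeq, with the seed (bases 2 to 8) in capitals, identifies the entry.
mmu-miR-703: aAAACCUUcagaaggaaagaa

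Ifitm2, an interferon-induced membrane protein gene, was listed at 0 in medium and at 13.9, 4.44 and 17.9 TPM with antibodies (adjusted p = 0.0336). Its call was lost without antibody library 1 or 3 or medium library 1 or 2 (highest adjusted p 0.192). It was also lost with 5 TPM added before the logarithm, and stayed called in 8 of the 16 alternatives other than titles. C1qtnf6, a secreted C1q-related protein gene, rose from 11.6, 15.7 and 15.4 TPM to 31.2, 47.9 and 47.3 TPM (adjusted p = 0.0377). Itgb3, the integrin beta-3 chain, rose from 13.8, 20.5 and 15.4 TPM to 33.2, 45.9 and 37.8 TPM (adjusted p = 0.0377). Polr2f, an RNA polymerase subunit gene, rose from 32.8, 53.3 and 40.4 TPM to 93.2, 87.5 and 80.0 TPM (adjusted p = 0.0390). Groups lie apart for these genes, and the calls of C1qtnf6, Itgb3 and Polr2f were lost without any of the antibody libraries or medium library 1, that of C1qtnf6 also without medium library 2 (highest adjusted p 0.198 to 0.204). C1qtnf6 was also lost with 5 TPM added before the logarithm. Tagap, a GTPase-activating protein gene of activated lymphocytes, fell from 396, 258 and 280 TPM to 86.0, 87.5 and 64.4 TPM (log2 change -1.95, SE 0.18, adjusted p = 0.000735). Of the 59 called genes, 6 were listed at 0 in all medium libraries. Of 13689 genes tested, 90 were at 0 in all medium and above 0 in all antibody libraries, with 5 the other way round. Every antibody library listed more genes above 0 (16107 to 17680) than any medium library (13555 to 14674). The part of that difference in these counts, and in the genes at 0 in medium, was not tested.

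Of the 59 called genes, 48 have a symbol that is not that of a predicted gene, 17 higher and 31 lower, and 34 of these fall under the naming rule. The others were named after their values were seen. The lower ones include Zfp36l1 (-1.16), a relative of Zfp36, Nfkbiz (-1.31), a relative of Nfkbid, Ppp1r15a (-1.17), which restarts translation after stress, and Osm (-1.24), a cytokine of the interleukin-6 family. Clec2i (-1.52), a lectin-like gene, Hibch (-1.10), Ift46 (-1.13), Cir1 (-0.98) and Chd2 (-0.93) complete them. The higher ones are Gnb2 (0.81), a G protein subunit, Pecam1 (0.77), an adhesion molecule, Pim1 (0.54), a survival kinase, Sap18 (0.50) and the ribosomal protein gene Rpl41 (0.35). Their groups lie apart, as for all called genes. Genes called only with mouse as a block numbered 180, 114 higher and 66 lower. By the naming rule the largest rises among them were H2ac24 (2.38), Ifngas1 (2.33), Gzmc (2.33), Spp1 (2.27) and Ugt1a6a (2.12), and the largest falls Garnl3 (-2.74), Dnase1l2, Dbndd2, Plk3 (-1.59) and Dancr (-1.59). Dnase1l2 stood at 2.76, 2.38 and 1.74 TPM with antibodies, all below the medium mean of 13.2 TPM (SD 7.53, n = 3), and Dbndd2 stood at 10.8, 10.0 and 15.6 TPM in medium and at 0.81, 3.36 and 3.23 TPM with antibodies.

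The libraries on antibodies to NKp46 and DNAM-1 share the NKp46 antibody and the medium controls, so the antibody groups were compared directly. That difference joins any effect of the NKG2D antibody with the reverse of any effect of the DNAM-1 antibody, which cannot be told apart. Of 13689 genes, 2 (0.0146%) were called, with 167 (1.22%) at an unadjusted p under 0.05. The block left 0, with 230 (1.68%) at an unadjusted p under 0.05. None of the 34 named called genes was among them. For Egr1 the difference was -0.02 on the log2 scale (95% interval -0.44 to 0.40), for Lag3 0.16 (-0.37 to 0.69) and for Ccl3 -0.19 (-0.55 to 0.17). For 4 of the 34 the 95% interval left out 0, without passing the adjusted test. Tnf stood at 3.48, 4.34 and 10.4 TPM with the NKG2D antibody and at 9.54, 9.82 and 20.0 TPM with the DNAM-1 antibody (difference -1.04, 95% interval -1.94 to -0.15, unadjusted p = 0.0265). Tnfrsf9 stood at 627, 605 and 650 TPM and at 739, 718 and 728 TPM in the same order (difference -0.22, unadjusted p = 0.0199). Cd226, the gene of DNAM-1 itself, stood at 46.6, 51.8 and 44.0 TPM with the NKG2D antibody and at 71.5, 73.2 and 56.6 TPM with the DNAM-1 antibody (difference -0.48, 95% interval -0.81 to -0.16, unadjusted p = 0.00737). Mir703 had a difference of 1.56 (unadjusted p = 0.0412). The adjusted p of each of these was 1, so the data do not place any of the named changes with one antibody pair, nor do the intervals show that the pairs act alike.

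**Figure D5:**
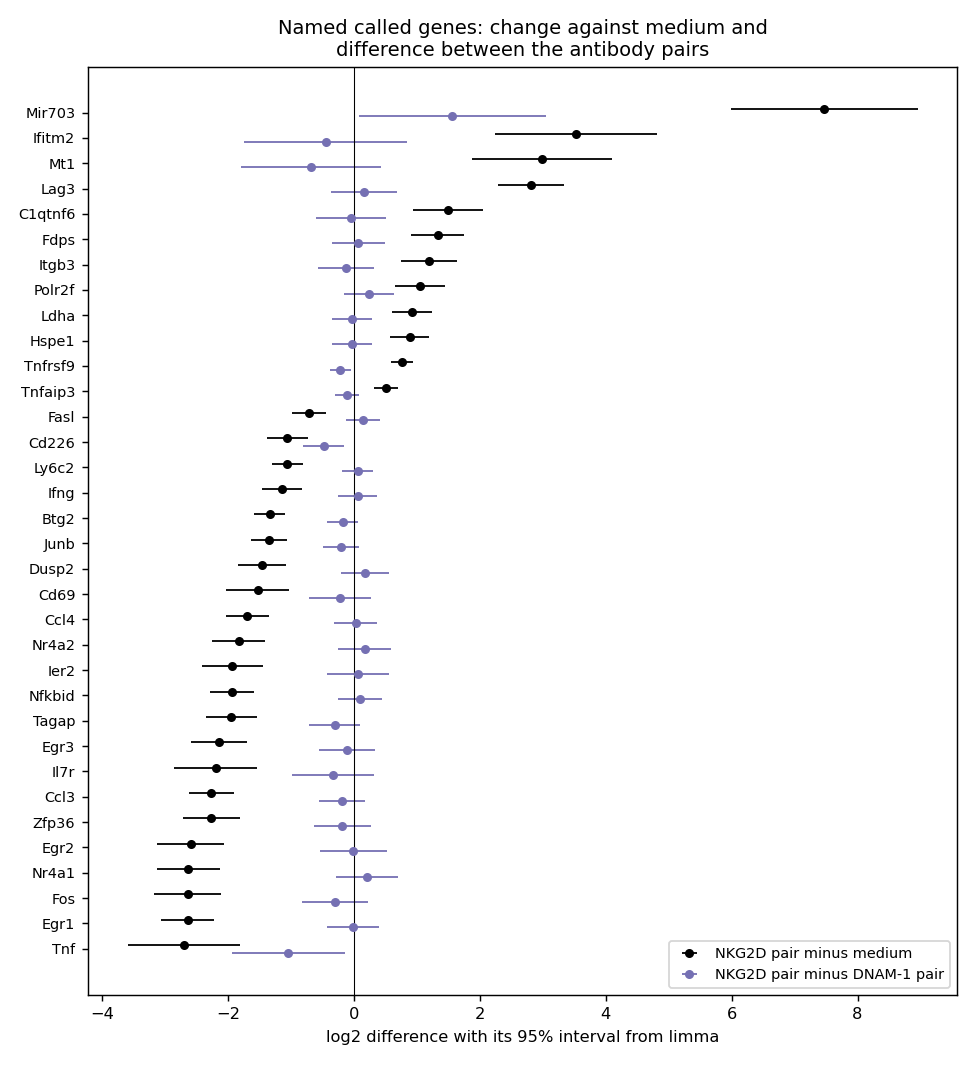
Log2 difference with its 95% interval from limma (horizontal axis) for the 34 named called genes, black for the NKG2D pair minus medium and violet for the NKG2D pair minus the DNAM-1 pair. The violet intervals include 0 for all but Tnf, Tnfrsf9, Cd226 and Mir703, which do not pass the adjusted test.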

How the data were processed

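RNA was measured in 9 libraries of NK cells, 3 in medium and 3 on each antibody pair. The authors deposited TPM per gene, made with STAR and RSEM on GRCm39 per the submitters' processing notes (versions not given in the sources used here). TPM hold no counts, so no count model was used. Genes averaging 1 TPM or more across the 9 libraries were kept, 13689 of 56923, and log2(TPM + 1) was fitted with limma 3.58.1 (R 4.3.3, variance trend, 3 group means), tested on simulated data. Adjusted p are Benjamini-Hochberg over all genes tested, called under 0.05. No source says that the libraries came from separate mice beyond the column numbers, so p-values measure the spread between these libraries. Deviations of same-numbered libraries correlated at -0.00 to 0.17 (mean 0.06), and those of other numbers averaged -0.03, so the block stayed an alternative. Between medium and NKG2D antibody libraries of the same number the correlations were -0.00 to 0.09 (mean 0.05). Support for reading the number as the mouse is therefore weak. By rule, the text names the 10 largest of each direction with a regular symbol and groups that do not overlap, called members of the lists, the same for calls under the block (5 each way), the 3 largest changes per list, and the receptors and adaptors bound. The members and lists were chosen with earlier results of these data known. Motifs were searched on both strands of 300-base RefSeq windows in Python 3.11.15. Some list members are not reported here.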

Additional observations from a re-analysis of the deposited data

Results flagged for a closer look

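The direct difference between the NKG2D and DNAM-1 antibody pairs passed the adjusted test for 2 genes. ENSMUSG00002074852, listed without a symbol, stood at 25.3, 12.8 and 12.3 TPM with the NKG2D pair and was listed at 0 in the other 6 libraries (log2 difference 4.08, limma adjusted p = 0.0340). Gm26493, a predicted gene, stood at 13.0, 10.8 and 10.6 TPM with the DNAM-1 pair and was listed at 0 in the other 6 libraries (log2 difference -3.64, limma adjusted p = 0.0340). With mouse as a block their adjusted p were 0.179 and 0.216. Each is listed at 0 throughout the other antibody group, so the sizes depend on the 1 TPM added before the logarithm and are not bounds. Neither was called in any of the 6 fits that leave out 1 library, nor with a pseudocount of 0.1 TPM.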

How the results depend on the processing

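Group size (3 libraries), unknown depth and the disagreement between titles and columns limit these results. Genes above 0 differed between the groups, and the part of depth in that was not tested. Against the 59 calls of the comparison with medium, the paired fit with mouse as a replicate block gave 239, with 56.5% of calls higher in place of 35.6%. Fitting only the 2 compared groups gave 26, and taking groups from the titles gave 0 (550 before adjustment). Omitting 1 library gave 28 to 257 calls, the extremes without antibody library 1 and without medium library 3. Those fits kept 27 to 58 of the 59, with the same extremes. Joining the replicate block with leaving out a library, chosen after seeing the data, gave 106, 126 and 83 calls without medium library 1, 2 and 3 and 27, 29 and 22 without antibody library 1, 2 and 3. Another pseudocount (0.1 or 5 TPM), filter, scaling or variance model gave 41 to 70 calls. Of the 59, 39 were also called with no filter on low values and 39 without the variance trend. With a pseudocount of 0.1 and 5 TPM 57 and 54 were. The difference between antibody pairs, with 2 calls, gave 0 with the replicate block, with a minimum mean of 5 TPM (110 at an unadjusted p under 0.05) and by titles (636), 1 with a pseudocount of 0.1 TPM and 1 when rescaled to genes with a symbol, and 0 to 4 on leaving out 1 library, where neither of the 2 genes was among the calls. The cause of these shifts was not tested. Of the 34 named called genes, 16 were called in all 16 alternatives other than titles, 18 were not called in some, and 0 changed direction. Without a filter on low values Tnf, Cd69, Itgb3, Ldha, Polr2f, Hspe1, Ifitm2, C1qtnf6, Mt1 and Fasl were not called. By titles 8 changed direction: Mir703 (-1.34), Ifitm2 (-0.37), Mt1 (-0.53), Lag3 (-0.0657), Tnf (0.00198), Ccl3 (0.0645), Cd226 (0.0778) and Ifng (0.0891). Summed neutrophil markers, at 0, 13.7 and 0 TPM in medium and 0, 9.64 and 0 TPM with antibodies, differed by -1.36 TPM in the mean, and by 0.173 TPM without the highest member.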
